A study of Caenorhabditis elegans with 16 samples.

Results

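Whole Caenorhabditis elegans adults of the strain hsf-1 OE; ubql-1(tm1574), called the double strain here, were compared with wildtype N2 adults. The comparison uses 8 of the 16 RNA libraries of the series, 4 per genotype, chosen by their genotype labels. All animals were collected on day 1 of adulthood after growth at 20 °C on OP50 bacteria. The double strain carries the integrated transgene uthIs235, made of hsf-1 under the sur-5 promoter with an unc-54 3′ end and a red marker under a myo-2 promoter, together with ubql-1(tm1574), a deletion over the first exons of ubql-1 that leaves a truncated transcript. It is 1 line, made by crossing the hsf-1 OE strain with the backcrossed mutant. The remaining libraries, 4 of hsf-1 OE and 4 of ubql-1(tm1574), are used only to set values beside the double strain. Each library was made from many whole hermaphrodites, so fewer cells of a type and less RNA per cell cannot be told apart.

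HSF-1 is the transcription factor that turns on chaperone genes when proteins misfold, and it also has a role in development without any heat. Ubiquilins such as UBQL-1 bind ubiquitin chains and proteasomes and carry faulty proteins between them. The sur-5 promoter is active in most somatic cells. A young adult hermaphrodite has finished its last moult, holds the sperm it made as a larva and produces oocytes, while the genes for a new cuticle are transcribed in waves during each larval stage.

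The double strain libraries held 20486225 to 30524762 counts and the wildtype libraries 19176247 to 27322700. Counts were put on a common scale, and normalized counts below are counts per library of the average size of these 8. The rank correlation between libraries of a genotype was 0.978 to 0.993, and between the genotypes 0.863 to 0.955. On the first principal component, with 85.0% of the variance, the genotypes separated. Wildtype replicate 2 stood apart from the other wildtype libraries on the second, with 5.50%, and double strain replicates 3 and 4 were well above replicates 1 and 2 for the body-shape collagens described below.

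The genotype itself was visible in ubql-1. Its normalized counts were 1555, 1401, 1390.0 and 1318 in the double strain, against 4068, 4292, 4064 and 4105 in wildtype. All 4 double strain libraries were below every wildtype library, and reads remained in each of them (log2 fold change -1.55 ± 0.07, adjusted p = 9.4e-07; edgeR quasi-likelihood test, Benjamini-Hochberg adjustment, SE after ±). Against hsf-1 OE the ubql-1 log2 difference was -1.49 (adjusted p = 1.8e-05), and it passed both thresholds with each library left out. For hsf-1 the double strain had 2859, 2404, 3239 and 3167 and wildtype had 2448, 2657, 2363 and 2362, so replicate 2 of the double strain lay within the wildtype range. The hsf-1 log2 fold change was 0.25 ± 0.10 with an adjusted p of 0.042, well inside a 2-fold change. Against ubql-1(tm1574), the parent strain without the transgene, it was 0.36 ± 0.09, adjusted p = 0.0058. Against hsf-1 OE, the parent strain with the transgene, the hsf-1 difference was 0.48 and did not pass the test (adjusted p = 0.26). Transcripts of sur-5, which lends its promoter, did not pass the test (log2 fold change -0.03 ± 0.10, adjusted p = 0.79). Counts of unc-54, which lends the 3′ end and encodes a body wall myosin, can include reads from the transgene and gave 0.28 ± 0.10 on the log2 scale (adjusted p = 0.034), and myo-2, the pharyngeal myosin whose promoter drives the marker, gave 0.23 ± 0.17 (adjusted p = 0.24).

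In all, 15125 genes had enough counts to be tested. Of these, 3578 passed both an adjusted p of 0.05 and a 2-fold change, which is 23.7% of the genes tested. The double strain was higher for 3111 (20.6%) and lower for 467 (3.09%), so 86.9% of the calls were higher. Without the fold threshold 10648 genes passed (70.4%), and then the directions were nearly even, with 5615 higher (37.1%) and 5033 lower (33.3%). Large changes were mostly increases: 1164 genes rose and 65 fell by more than 4-fold, and 174 rose and 6 fell by more than 16-fold. The genes that rose had a median of 120 normalized counts in the double strain and 29.1 in wildtype, whereas those that fell had 107 in the double strain and 272 in wildtype. The 8 values did not overlap between the genotypes for 9930 genes (65.7% of those tested) and for 3397 of the genes called. Leaving out 1 library at a time gave 3348 to 3983 calls. Scaling to cdc-42, pmp-3 and rpb-2, 3 genes used as references for expression, moved the median of all genes up by 0.39 on the log2 scale and gave 4791 higher and 193 lower. In the main test these 3 genes were themselves lower in the double strain at an adjusted p under 0.05 (log2 fold changes -0.53 to -0.27). Reads of overlapping genes cannot be told apart, and among the genes named below this concerns, on the other strand, sago-2, hsp-70, hsp-90, rpn-2, orc-1, psf-1, spn-4, ptr-10, pals-24, gst-44, epg-5, daf-16, ubq-1 and uba-1 and, on the same strand, cdc-48.1, F30H5.3, chs-1, lin-14, nhr-266 and C55C3.7.

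**Figure D1:**
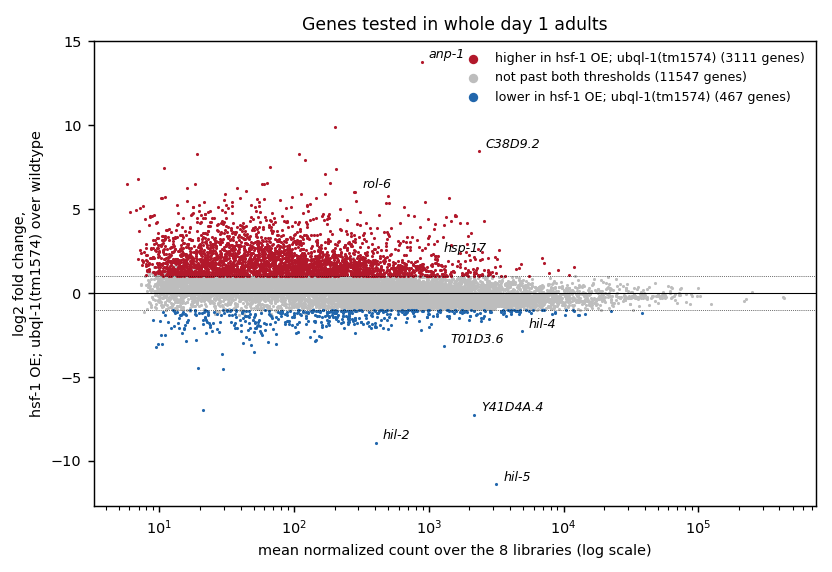
Each point is 1 of 15125 genes, with its mean normalized count over the 8 libraries on the x axis (log scale) and its log2 fold change, double strain over wildtype, on the y axis. Red points (3111) passed both thresholds above wildtype and blue points (467) below it, and the fitted folds of genes near 0 counts in 1 genotype, anp-1 among them, depend on the prior count of the fit.

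The largest rises were in genes that wildtype adults hardly used. For anp-1 (chromosome V, 12859381 to 12863833, WBcel235) the double strain had 1551, 1827, 1547 and 2135 normalized counts and no wildtype library had any. With 3 counts per library taken as the limit, anp-1 was at least 497-fold higher. A second gene, nspg-1, lies across anp-1 on the other strand, and since the strand setting of the counting is not given in the sources used here, reads of the 2 cannot be told apart. F56A4.3 had 315, 494, 476 and 311 in the double strain and 1.22 or less in wildtype, at least 112-fold higher. C38D9.2 was expressed at 5656, 4926, 4177 and 3933 in the double strain, against 13.5, 12.2, 6.84 and 18.6 in wildtype (log2 fold change 8.45 ± 0.22, adjusted p = 1.1e-08). Each of these 3 genes was also high in hsf-1 OE, with mean normalized counts of 2038 ± 139 for anp-1, 395 ± 129 for F56A4.3 and 3235 ± 1469.6 for C38D9.2 (SD). In ubql-1(tm1574) the 3 genes were at 0 to 18.5 on average. ZK1025.3 was at least 61.4-fold and W09B7.1 at least 67.8-fold higher, and F30H5.3, W09B7.2 and K02E11.10 rose by 6.02 to 7.38 on the log2 scale. In W09B7.2 a single library carried much of the level, since double strain replicate 2 had 892 and the other 3 had 181 to 205.

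The deepest falls were in the linker histones, H1 proteins that bind DNA between nucleosomes and compact chromatin. Of the 6 linker histone genes tested, of 9 in the tables, 5 fell (83.3% beside 3.09% of all genes). The expression of hil-5 (chromosome I, 5774585 to 5775610) was 2.29, 3.68, 1.67 and 1.43 in the double strain, against 5545, 7042, 6653 and 5939 in wildtype, which is close to complete loss (log2 fold change -11.40 ± 0.18, adjusted p = 2.3e-10). hil-2 went the same way, at 4.58, 0, 1.67 and 0.717 in the double strain and 820.5, 876, 779 and 748 in wildtype (log2 fold change -8.91 ± 0.34, adjusted p = 3.0e-07). The X-linked his-24 had 1.15, 2.76, 0.833 and 4.304 in the double strain and 51.4, 85.1, 45.1 and 45.6 in wildtype. hil-4, the most abundant of them, kept part of its level, with 2055, 1907, 1373 and 1386 in the double strain and 7678, 9262, 7864 and 7613 in wildtype (log2 fold change -2.27 ± 0.14, adjusted p = 5.7e-06). For none of these 4 genes did the genotypes overlap, and the summed level of the list was 1467 to 2220.1 in the double strain, 1356 to 2315 in hsf-1 OE, 11551 to 13992 in ubql-1(tm1574) and 14236 to 17388 in wildtype. The difference between the double strain and ubql-1(tm1574) passed both thresholds for hil-5 (-11.12 ± 0.18, adjusted p = 7.9e-12), hil-2 (-8.75 ± 0.31, adjusted p = 1.8e-08) and hil-4 (-1.99 ± 0.14, adjusted p = 2.8e-06), whereas hil-4 did not differ detectably between the double strain and hsf-1 OE (-0.02 ± 0.18, adjusted p = 0.99).

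Core histone genes, which supply the proteins of the nucleosome itself, had 9 members lower and 2 higher of 25 tested (59 in the tables), with a median log2 fold change of -0.78 beside 0.17 over all genes. These shares were 36% lower and 8% higher, beside 3.09% and 20.6% of all genes. Many of these genes are near-identical copies that can share reads, and their transcripts mostly lack the poly(A) tail used to select the RNA, so single members are uncertain. his-32 had 0.833 normalized counts or fewer in every double strain library and 40.4, 30.4, 57.4 and 41 in wildtype, at least 15.6-fold lower. his-67 had 9.17, 8.27, 10.8 and 9.32 in the double strain and 52.7, 93.6, 86.1 and 62.4 in wildtype, and his-60 had 33.2, 35.8, 36.7 and 28.7 in the double strain and 165, 218, 187 and 127 in wildtype. Against that direction his-70 rose, with 209, 254, 352 and 359 in the double strain and 51.4, 28.0, 67 and 98.7 in wildtype (log2 fold change 2.25 ± 0.33, adjusted p = 0.00029).

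Outside the histones, the steepest fall was that of Y41D4A.4 (chromosome IV, 1745954 to 1751317). It had 27.5, 21.1, 29.2 and 32.3 normalized counts in the double strain, against 4197, 4708, 4139 and 4013 in wildtype (log2 fold change -7.26 ± 0.13, adjusted p = 3.5e-10), and averaged 16.8 ± 11.1 in hsf-1 OE and 3881 ± 139 in ubql-1(tm1574) (SD). The spread within each genotype was small beside this gap. Among genes with a mean of at least 100 normalized counts and no overlap, T01D3.6, fbxa-192, F23D12.2, fbxa-107, fbxa-170 and W06D11.1 came next, with log2 fold changes of -3.16 to -2.57. The calls named in this paragraph, and those for the largest rises above, held with each library left out in turn.

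**Figure D2:**
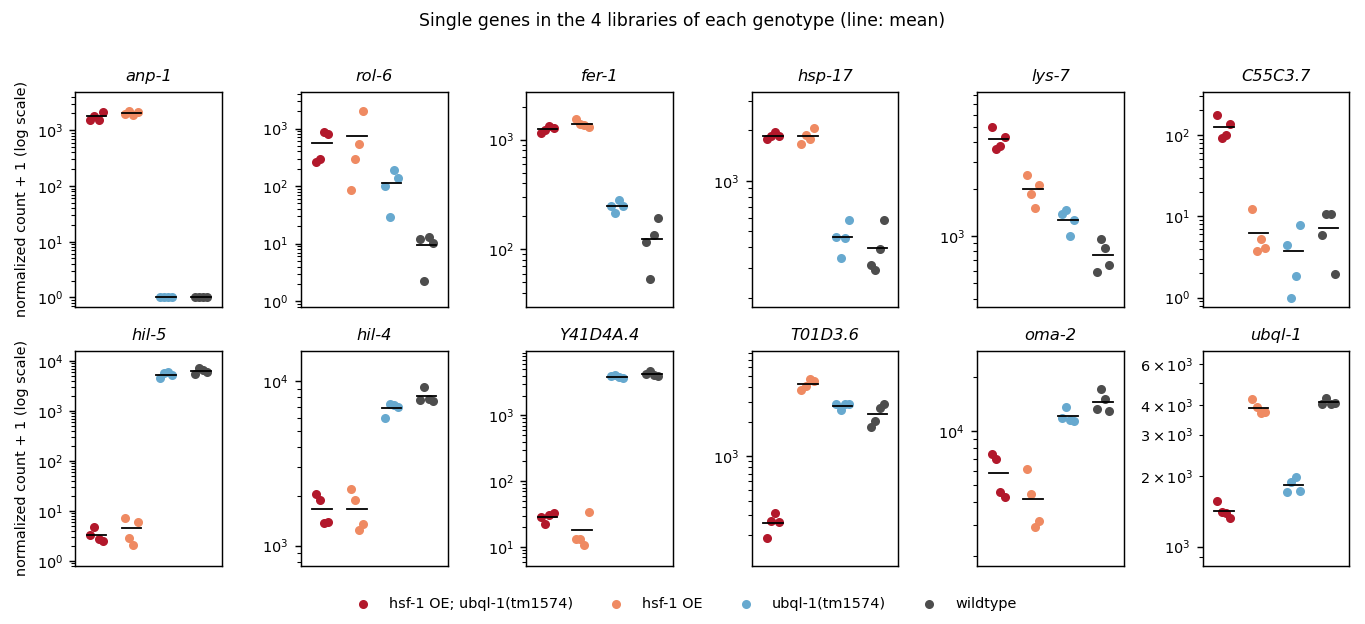
Normalized counts plus 1 (log scale) of 12 genes in every library, with the double strain (dark red), hsf-1 OE, ubql-1(tm1574) and wildtype from left to right and a line at each mean. Double strain values stand apart from wildtype in all 12 panels. In T01D3.6, C55C3.7, lys-7 and ubql-1 they also stand apart from hsf-1 OE.

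Cuticle genes rose together. Collagens that set body shape, structural proteins of the cuticle in which mutations give dumpy, roller or blistered worms, rose for 18 of 19 genes, against 20.6% over all genes, with a median log2 fold change of 4.57, and the count was 18 with each library left out. rol-6 had 261, 301, 867 and 807 in the double strain, against 11, 1.22, 12.3 and 9.31 in wildtype (log2 fold change 6.04 ± 0.58, adjusted p = 5.8e-05). sqt-2 had 520.4, 517, 1486 and 1420.2 in the double strain and 18.4, 2.43, 19.1 and 29.8 in wildtype (log2 fold change 5.77 ± 0.56, adjusted p = 6.1e-05). In both, every double strain library was above every wildtype library, and replicates 3 and 4 were about 3 times as high as replicates 1 and 2. sqt-3 had 1053, 1135, 3068 and 2920.0 in the double strain and 109, 83.9, 183 and 205 in wildtype (log2 fold change 3.81 ± 0.44, adjusted p = 0.00011). bli-2 rose by 5.48 on the log2 scale, with reads that could also come from zyg-1 on the other strand, and dpy-3 was at least 24.4-fold higher.

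Of the collagens named col-, 121 of 155 could be tested and 80 rose (66.1% beside 20.6% of all genes, median 2.15). col-63 had 941, 812, 2545 and 3012 in the double strain, against 31.8, 9.72, 76.6 and 54 in wildtype (log2 fold change 5.41 ± 0.60, adjusted p = 9.7e-05), and col-17 had 664, 682, 1977 and 1757 in the double strain, against 36.7, 0, 54.7 and 53.1 in wildtype. Again wildtype replicate 2 was the lowest of its group. The summed level of all col- genes was 1181814 to 1267720.4 in the double strain and 983846 to 1213264 in wildtype, so the ranges overlapped. The 80 that rose had a median level of 1064 in the double strain and 88.6 in wildtype, while the other 41 tested had a median of 16885 in the double strain and 18359 in wildtype and made up most of the sum.

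The genes of the moult itself rose as well. Enzymes, protease inhibitors and matrix proteins used to shed and rebuild the cuticle rose for 14 of 20 (70% beside 20.6% of all genes, median 2.36). mlt-11, a protease inhibitor, had 230.4, 569, 653 and 445 in the double strain, against 20.8, 23.1, 26 and 23.3 in wildtype (log2 fold change 4.35 ± 0.33, adjusted p = 1.6e-05), without overlap. lpr-3, a lipocalin of the apical matrix, had 96.3, 263, 362 and 174 in the double strain and 11, 10.9, 10.9 and 0.931 in wildtype. mlt-8 rose by 4.07 and ptr-4, a patched-related protein needed for moulting, by 3.55. Of 8 transcription factors of the moulting cycle, lin-42, the worm relative of the circadian gene period, rose with 459.6, 333, 883 and 906 in the double strain and 110.2, 142, 126 and 123 in wildtype (log2 fold change 2.37 ± 0.31, adjusted p = 0.00018), and bed-3 rose by 1.70. These 2 were 25% of the list, near the 20.6% of all genes. Another 1 of the 8, nhr-23, was lower at an adjusted p under 0.05, inside the fold threshold (-0.39). Among timing genes of the larval stages, lin-41 had 5218, 5506, 3671 and 3862 in the double strain, against 8612, 11113, 8998 and 8398 in wildtype (log2 fold change -1.02 ± 0.15, adjusted p = 0.00025), a call lost without double strain replicate 3 (-0.91), double strain replicate 4 (-0.93) or wildtype replicate 2 (-0.91). It was the 1 of 6 such genes that fell, while lin-28 gave -0.50 and lin-14 0.52, both inside the fold threshold.

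The 6 markers fixed for the larval moult (mlt-10, mlt-11, noah-1, dpy-7, sqt-3 and nhr-23, all also in the groups above) had 5 members higher. The other marker was nhr-23, the same gene as the lower transcription factor above. It was lower at an adjusted p under 0.05, inside the fold threshold (log2 fold change -0.39). The summed level of the 6 was 3043 to 6504 in the double strain and 1946 to 2039 in wildtype, with none at 0. Of the 5 markers of the hypodermis, the skin that makes the cuticle, the 2 higher ones were dpy-7 and rol-6, both body-shape collagens, and the list summed to 46388 to 51384 in the double strain and 48887 to 57112 in wildtype. The part that animals in a moult had in these results was not tested. In the single strains, body-shape collagens summed to 2971 to 54496 in hsf-1 OE and 2433 to 6509 in ubql-1(tm1574), beside 9225 to 25174 in the double strain and 435 to 1548 in wildtype. The difference from ubql-1(tm1574) passed for rol-6 (2.33 ± 0.51, adjusted p = 0.0031) and the difference from hsf-1 OE did not (-0.44 ± 0.81, adjusted p = 0.89).

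**Figure D3:**
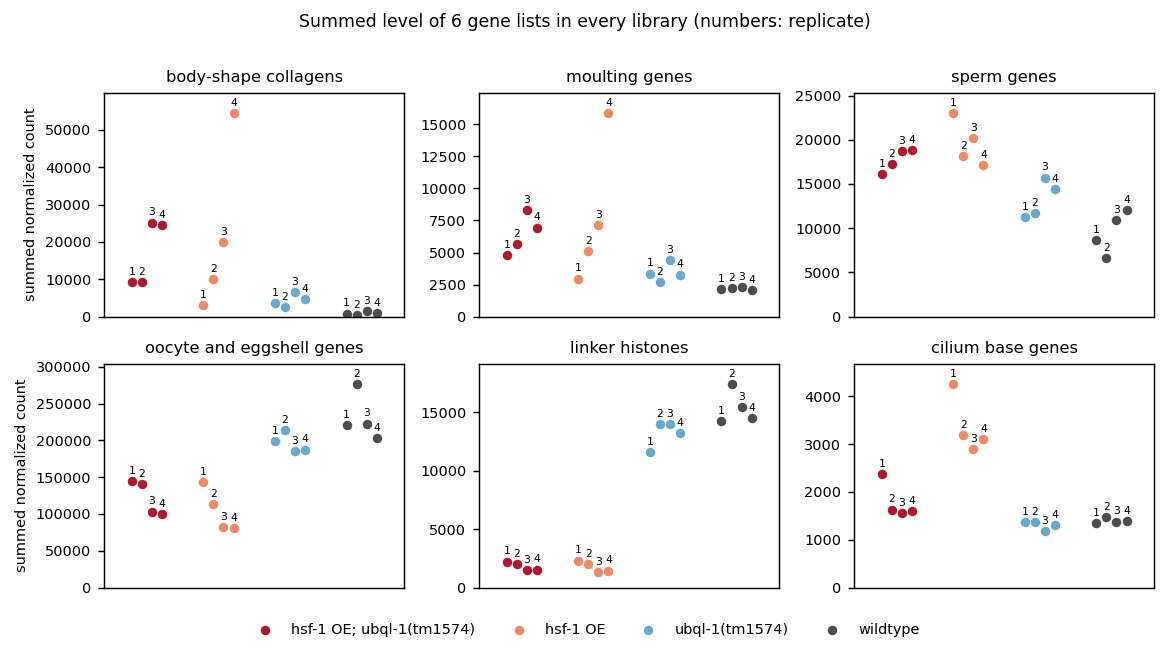
Summed normalized counts of 6 gene lists in every library, with the double strain (dark red), hsf-1 OE, ubql-1(tm1574) and wildtype from left to right and the replicate number above each point. Body-shape collagens and moulting genes lie above wildtype in all 4 double strain libraries, with replicates 3 and 4 the highest of the double strain, while linker histones and oocyte and eggshell genes lie below all wildtype libraries.

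Hedgehog-related proteins, secreted or surface proteins of the worm that share parts with Hedgehog and Patched although a classical Hedgehog pathway is missing, rose for 31 of 55 tested (83 in the tables, median 1.47). That is 56.4% beside 20.6% of all genes. grl-7 had 173, 166, 531 and 469 in the double strain, against 11, 0, 4.102 and 6.52 in wildtype (log2 fold change 5.90 ± 0.64, adjusted p = 9.2e-05). grl-5 and grd-2 rose by 5.22 and 4.87, and in all 3 genes double strain replicates 3 and 4 were the highest. ptr-10 was even across the replicates, with 91.7, 96.5, 112 and 103 in the double strain and 1.22, 3.65, 6.84 and 1.86 in wildtype (log2 fold change 4.91 ± 0.34, adjusted p = 9.6e-06).

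Genes of sensory cilia also rose. Intraflagellar transport moves cargo along the cilium, and 8 of its 23 tested genes (29 in the tables) were higher, with a median of 0.81. That is 34.8% beside 20.6% of all genes, and 2 members were lower at an adjusted p under 0.05, inside the fold threshold. che-3, the heavy chain of the dynein that returns cargo to the base, had 1262, 327, 590.0 and 583 in the double strain, against 71.0, 42.5, 56.1 and 61.4 in wildtype (log2 fold change 3.57 ± 0.39, adjusted p = 9.7e-05). ift-74, a subunit of the outbound complex, had 258, 66.2, 90.0 and 79.6 in the double strain and 20.8, 17, 19.1 and 24.2 in wildtype (log2 fold change 2.57 ± 0.46, adjusted p = 0.00069). Double strain replicate 1 was the highest in both, yet the genotypes did not overlap. dyf-2 and dyf-3 rose by 2.04 and 1.89.

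Of the genes for the gate and trafficking complexes at the base of the cilium, 8 of 13 tested (24 in the tables) rose, with a median of 1.23. That is 61.5% beside 20.6% of all genes, and 2 members were lower at an adjusted p under 0.05, inside the fold threshold. mks-5, a scaffold of the transition zone, had 525, 106, 132 and 211 in the double strain and 8.57, 9.72, 6.84 and 6.52 in wildtype (log2 fold change 4.92 ± 0.59, adjusted p = 0.00013). bbs-4, a subunit of the BBSome, had 110.03, 130.5, 120.0 and 107 in the double strain and 20.8, 12.2, 10.9 and 10.2 in wildtype (log2 fold change 3.11 ± 0.24, adjusted p = 1.9e-05), with little spread. nphp-1 and nphp-4, both of the transition zone, rose by 3.67 and 3.24, and nphp-4 lies across 4 genes on the other strand. Of the neuron markers, 0 of 6 passed both thresholds by edgeR or DESeq2, 3 higher and 2 lower had an unadjusted p under 0.05, and their sum was 5342 to 6034 in the double strain and 5676 to 6581 in wildtype.

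Some ciliary genes also differed between the 2 strains with the transgene. ift-74 averaged 123 ± 90.2 in the double strain and 571 ± 146 in hsf-1 OE (SD), a log2 difference of -2.25 ± 0.39 (SE), adjusted p = 0.031. nphp-4 averaged 131 ± 112 in the double strain and 614 ± 132 in hsf-1 OE (SD), a difference of -2.28 ± 0.44 (SE), adjusted p = 0.049. Both calls were fragile, since adjusted p reached 0.12 for ift-74 and 0.17 for nphp-4 with 1 library left out. The call for ift-74 held only without double strain replicate 1 or hsf-1 OE replicate 4, and that for nphp-4 only without double strain replicate 1, the library in which both genes were highest. For che-3, mks-5 and bbs-4 the difference from hsf-1 OE did not pass (-0.47 ± 0.32, adjusted p = 0.63; -1.44 ± 0.46, adjusted p = 0.25; and 0.15 ± 0.15, adjusted p = 0.76). Only 95 genes passed both thresholds between the double strain and hsf-1 OE, 0.611% of 15555 tested, and 179 did with the replicate number as a block. That count was 48 to 109 with 1 library left out, with 53 without double strain replicate 2, 54 without replicate 3, 61 without replicate 4, 53 without hsf-1 OE replicate 2 and 48 without hsf-1 OE replicate 3.

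Genes of sperm were higher. Of 19 genes with a known role in sperm, 13 rose (68.4% beside 20.6% of all genes), with a median of 1.41. fer-1, a membrane fusion protein of the maturing sperm, had 1153, 1234, 1340.0 and 1289 in the double strain, against 115, 52.3, 135 and 193 in wildtype (log2 fold change 3.33 ± 0.29, adjusted p = 3.4e-05). spe-9, a surface protein needed to fertilise the oocyte, had 138, 131, 202 and 214 in the double strain and 34.3, 24.3, 57.4 and 59.6 in wildtype (log2 fold change 1.96 ± 0.30, adjusted p = 0.00032). No overlap occurred in either, and the lowest wildtype library was replicate 2 in both.

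Major sperm proteins, the cytoskeletal proteins of worm sperm encoded by many near-identical genes that can share reads, had 4 of 33 tested higher (35 in the tables), or 12.1% against 20.6% of all genes, with a median of 0.40. msp-74 had 79.1, 79.0, 111 and 115 in the double strain and 6.12, 0, 9.57 and 8.38 in wildtype (log2 fold change 3.96 ± 0.46, adjusted p = 0.00011), whereas the abundant msp-38 had 1877, 1951, 2048 and 1891 in the double strain and 977, 565, 1101 and 1173 in wildtype (log2 fold change 1.02 ± 0.19, adjusted p = 0.00078), a call lost without wildtype replicate 2 (0.86) and with DESeq2 (0.94). The summed level of the family was 73163 to 79214 in the double strain and 32526 to 73644 in wildtype, where replicate 2 was the lowest, and the ranges overlapped. Of 12 genes of sex determination and the switch from sperm to oocytes, 2 rose and 1 fell (16.7% and 8.33% beside 20.6% and 3.09% of all genes). At an adjusted p under 0.05, 4 were higher and 7 lower (median -0.30). Of this list fog-3, which commits germ cells to sperm, had 133, 144, 162 and 157 in the double strain and 25.7, 18.2, 26 and 41.9 in wildtype (log2 fold change 2.39 ± 0.24, adjusted p = 6.6e-05), and fem-3, a second gene that promotes sperm, fell, with 823, 893, 686 and 651 in the double strain and 1703, 1537, 1449 and 1667 in wildtype (log2 fold change -1.06 ± 0.11, adjusted p = 8.4e-05), a call lost without double strain replicate 3 (-0.99) or replicate 4 (-0.96).

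Of 18 Argonaute genes, whose proteins bind small RNAs, 3 rose and 1 fell, which is 16.7% and 5.56% beside 20.6% and 3.09% of all genes, so the share that rose was near that over all genes. alg-3 and alg-4, which act in sperm development, rose, with 1469, 1824, 2032 and 2153 for alg-3 in the double strain and 496, 277, 757 and 788 in wildtype (log2 fold change 1.69 ± 0.28, adjusted p = 0.00048) and a log2 fold change of 1.63 for alg-4. sago-2 rose by 1.24. alg-5 was the member that fell (2 fell without double strain replicate 1), with 1425, 1399, 1140.0 and 1110.3 in the double strain and 3156, 3836, 3648 and 3746 in wildtype (log2 fold change -1.505 ± 0.11, adjusted p = 9.6e-06). The 6 sperm markers (gsp-3, gsp-4, spe-9, spe-11, fer-1 and ssp-9, all also in the sperm group) had 4 members higher and summed to 6786 to 8431 in the double strain and 1545 to 4071 in wildtype, and the part of the amount of sperm in these results was not tested. Between the single strains and the double strain, fer-1 averaged 1254 ± 80.0 in the double strain, 1390.2 ± 101 in hsf-1 OE, 248 ± 28.8 in ubql-1(tm1574) and 124 ± 57.9 in wildtype (SD, n = 4 each). Its difference from ubql-1(tm1574) was 2.38 ± 0.10, adjusted p = 8.1e-08.

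The oocyte side of the germline was lower, by smaller amounts. All 15 oocyte and eggshell genes had an adjusted p under 0.05 in the downward direction, against 33.3% of all genes (median -0.90). The fold threshold was also passed by 4 of them, or 26.7% beside 3.09% of all genes. oma-2, a protein that holds translation in the oocyte until maturation, had 7417, 6974, 4579.8 and 4301 in the double strain, against 13223, 17183, 15123 and 12896 in wildtype (log2 fold change -1.33 ± 0.18, adjusted p = 0.00021). cbd-1, which anchors the eggshell layers, had 29062, 26585, 18746 and 17975 in the double strain and 49271, 66327, 48625 and 46795 in wildtype (log2 fold change -1.19 ± 0.17, adjusted p = 0.00027). chs-1, the chitin synthase of the eggshell, fell by 1.22 on the log2 scale, and egg-2, a receptor on the oocyte surface, by 1.09, a call lost without double strain replicate 3 (-0.97) or replicate 4 (-0.98). Double strain replicates 3 and 4 were the lowest in each of these 4, and none overlapped between the genotypes. Without double strain replicate 1 the count of the list was 7.

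Proteins that control maternal messages behaved alike. All 7 were lower at an adjusted p under 0.05, against 33.3% of all genes. The fold threshold was passed by 2 (28.6% beside 3.09% of all genes), pos-1 with 9353, 8588, 6006 and 6016 in the double strain and 17240.2, 21450.2, 18669 and 17229 in wildtype (log2 fold change -1.32 ± 0.15, adjusted p = 0.00012) and spn-4 with a log2 fold change of -1.23. In the list for germ granules, the RNA and protein droplets of germ cells, 5 of 16 fell, or 31.25% beside 3.09% of all genes. meg-4, one of the disordered proteins that build these droplets in embryos, had 150.1, 328, 126 and 131 in the double strain, against 838, 965, 748 and 671 in wildtype (log2 fold change -2.13 ± 0.29, adjusted p = 0.00022). It averaged 55.9 ± 11.4 in hsf-1 OE (SD), and the double strain was above hsf-1 OE (1.69 ± 0.33, adjusted p = 0.049). That call held with 1 library left out only where the library was double strain replicate 2, which had far more counts than the other 3. meg-1, meg-2 and meg-3 fell by 1.498, 1.43 and 1.38.

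DNA replication genes were lower throughout, with 33 of 33 at an adjusted p under 0.05, against 33.3% of all genes (median -0.83). Past the fold threshold were 5, or 15.2% beside 3.09% of all genes. The count of 5 depended on the libraries, since it was 11 without double strain replicate 1, 2 without double strain replicate 3 and 1 without double strain replicate 4. rnr-2, a subunit of the enzyme that makes deoxynucleotides, had 7028, 5965, 4493 and 4319 in the double strain and 11258, 13118, 11593 and 11448 in wildtype (log2 fold change -1.12 ± 0.15, adjusted p = 0.00018). orc-1, of the complex that marks origins, gave -1.09 ± 0.11 and psf-1, of the helicase, -1.07 ± 0.12. For meiosis, 21 of 22 genes had an adjusted p under 0.05 in the downward direction, against 33.3% of all genes. The 2 that passed the fold threshold (9.09% beside 3.09% of all genes) were syp-2 and him-8 (-1.07 and -1.02). Neither of them passed it without double strain replicate 3 or without double strain replicate 4, and 1 did without wildtype replicate 2.

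Markers of the germline moved with these groups. The 5 germline markers summed to 33776 to 41742 in the double strain and 53402 to 58367 in wildtype. All 5 were lower at an adjusted p under 0.05, against 33.3% of all genes, without reaching a 2-fold change. The 5 oocyte markers (oma-1, oma-2, rme-2, puf-5 and cbd-1, all in the oocyte group) summed to 45429.5 to 69983 in the double strain and 103989.8 to 146462 in wildtype, with 2 past both thresholds. No marker was at 0 in either genotype, and the part of germline size in these results was not tested. With housekeeping gene scaling the medians were -0.52 for oocyte and eggshell, -0.49 for maternal proteins, -0.45 for replication and -0.23 for meiosis, still negative, and of these 4 lists none then had a member past both thresholds. Vitellogenins, the yolk proteins made in the intestine, did not pass the test, with 0 of 6 called by edgeR or DESeq2, 0 at an unadjusted p under 0.05 and 282358 to 494464 for vit-2, 1 of these yolk proteins, in the double strain beside 400739.9 to 581053 in wildtype.

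**Figure D4:**
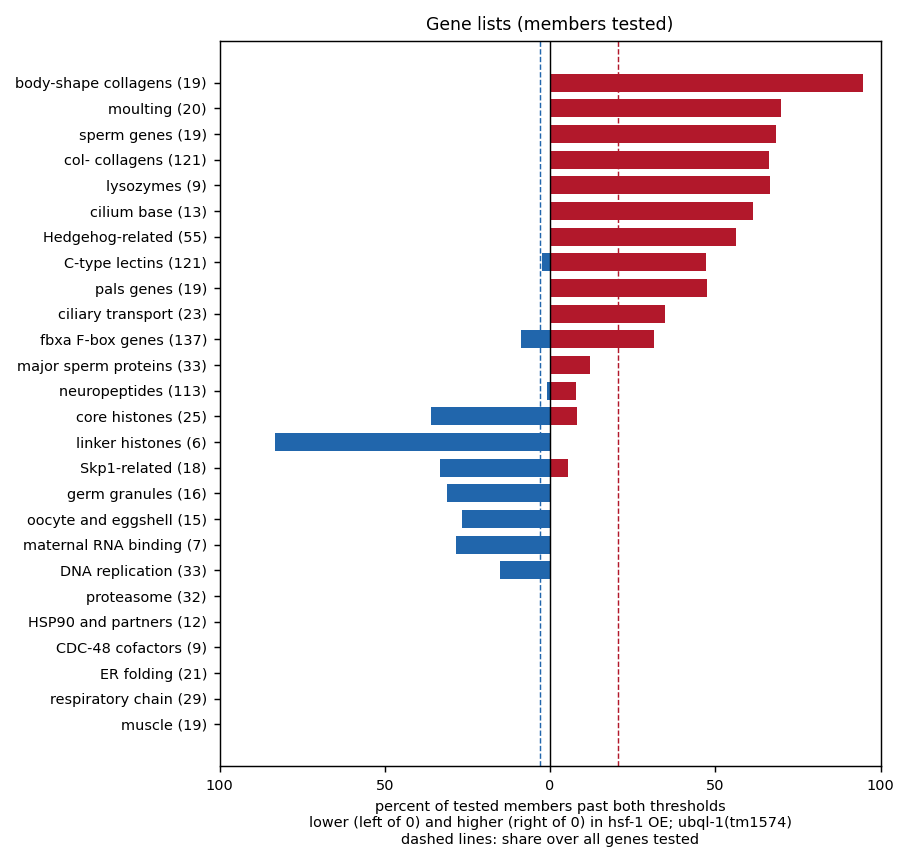
Share of the tested members of 26 gene lists that passed both thresholds above wildtype (red, right) and below it (blue, left) in the double strain, with the number tested in brackets and dashed lines at 20.6% and 3.09%, the shares over all 15125 genes. The cuticle, moulting and lysozyme lists and the list of sperm genes lie far above the first line, while major sperm proteins (12.1%) lie below it. Linker histones lie far above the second line, and the 6 lists from proteasome to muscle have no bar.

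Genes of innate immunity were higher in the double strain. Lysozymes, which break bacterial walls, rose for 6 of 9 (66.7%), and all 9 were higher at an adjusted p under 0.05 (median 1.19). The shares over all genes were 20.6% past both thresholds and 37.1% without the fold threshold. lys-7 had 5012, 3629, 3771 and 4293 in the double strain, against 590.3, 965, 842 and 656 in wildtype (log2 fold change 2.45 ± 0.17, adjusted p = 7.6e-06). It was also above both single strains, which averaged 1994 ± 402 in hsf-1 OE and 1278 ± 204 in ubql-1(tm1574) (SD). The difference was 1.05 ± 0.14, adjusted p = 0.010, over hsf-1 OE and 1.75 ± 0.13, adjusted p = 6.5e-06, over ubql-1(tm1574). lys-3, lys-5 and lys-6 rose by 2.39, 1.19 and 1.46 at much lower levels, with 1.22, 18.2, 2.73 and 4.65 for lys-3 in wildtype, and lys-6 overlapped between the genotypes. The difference of lys-7 from hsf-1 OE was 0.94 to 1.13 with 1 library left out, inside the fold threshold without double strain replicate 1 or hsf-1 OE replicate 3.

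C-type lectin domain genes, many of them secreted by the intestine, rose for 57 and fell for 3 of 121 tested, while 240 are in the tables (median 0.93). These shares were 47.1% higher and 2.48% lower, beside 20.6% and 3.09% of all genes. clec-161 had 109, 136, 137 and 113 in the double strain and at most 2.73 in wildtype, at least 34.8-fold higher. clec-60 had 126, 62.5, 53.3 and 119.8 in the double strain and 0, 0, 4.102 and 12.1 in wildtype (log2 fold change 4.29 ± 0.68, adjusted p = 0.00041), and the pseudogenes clec-237 and clec-236 rose by 4.51 and 3.20. Of 17 genes used as infection reporters, 6 rose (35.3% beside 20.6% of all genes), among them irg-5 with 697, 924, 554 and 789 in the double strain and 174, 269.8, 206 and 112 in wildtype (log2 fold change 1.97 ± 0.25, adjusted p = 0.00016) and sysm-1 (1.72). sysm-1 also stood above hsf-1 OE by 1.46 ± 0.24, adjusted p = 0.026, which held in 4 of the 8 fits with 1 library left out. irg-2 rose by 1.35 with overlap between the genotypes.

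The pals family, of which some members respond to viruses and microsporidia, had 9 of 19 tested members higher (37 in the tables). That is 47.4% beside 20.6% of all genes. pals-26 had 67.6, 55.1, 65.8 and 66.7 in the double strain and 3.67, 6.08, 2.73 and 5.58 in wildtype (log2 fold change 3.75 ± 0.27, adjusted p = 1.2e-05), and pals-32, pals-23 and pals-24 rose by 2.88, 1.65 and 1.62. Intestine markers had 0 of 6 past both thresholds by edgeR or DESeq2, with 5 higher at an unadjusted p under 0.05, and summed to 49706 to 53965 in the double strain and 32582 to 41453 in wildtype. The share of intestine in the immune results was not tested.

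Families of ubiquitin ligase adaptors had calls in both directions. F-box proteins choose the targets of SCF ligases, and of 137 tested fbxa genes (209 in the tables) 43 rose and 12 fell, or 31.4% and 8.76% beside 20.6% and 3.09% of all genes (median 0.57). fbxa-125 had 121, 178, 198 and 188 in the double strain, against 22, 0, 20.5 and 27.9 in wildtype (log2 fold change 3.25 ± 0.52, adjusted p = 0.00041), and fbxa-223 had 59.6, 53.3, 83.3 and 80.3 in the double strain, against 11, 9.72, 8.20 and 8.38 in wildtype. fbxa-192 had 39, 45.9, 35.0 and 20.1 in the double strain and 251, 286, 219 and 251 in wildtype (log2 fold change -2.86 ± 0.24, adjusted p = 2.5e-05), and fbxa-107 had 42.4, 30.3, 36.7 and 39.4 in the double strain and 205, 221, 209 and 273 in wildtype. Members of this family with similar sequence can share reads.

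Skp1-related proteins, which link F-box proteins to the ligase, had 6 lower and 1 higher of 18 tested (median -0.45, and 2 higher without double strain replicate 2, 3 or 4 or wildtype replicate 2). These shares were 33.3% lower and 5.56% higher, beside 3.09% and 20.6% of all genes. skr-15 had 24.1, 19.3, 9.9996 and 8.61 in the double strain, against 114, 129, 101 and 105 in wildtype (log2 fold change -2.89 ± 0.31, adjusted p = 8.6e-05). skr-14 and skr-7 fell by 2.21 and 1.85, and double strain replicates 3 and 4 were the lowest in all 3. skr-5 rose, with 35.5, 45, 40.8 and 68.1 in the double strain and 6.12, 17, 5.47 and 13 in wildtype (log2 fold change 2.16 ± 0.37, adjusted p = 0.00061), and lies across lsy-27 and fbxa-188 on the other strand. MATH and BTB domain genes, adaptors of cullin 3 ligases, had 20 higher and 5 lower of 78 tested (110 in the tables, median 0.11). These shares were 25.6% and 6.41% beside 20.6% and 3.09% of all genes, so the higher share was near that over all genes. The higher ones included math-38 (2.77), btb-2 (2.19) and math-27, with 1072, 1101, 1454 and 1554 in the double strain and 356, 293, 349 and 387 in wildtype.

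Genes for protein quality control were lower by less than 2-fold. All 32 proteasome subunits had an adjusted p under 0.05 in the downward direction, against 33.3% of all genes, and none reached a 2-fold change by edgeR or DESeq2 (median -0.46, range -0.68 to -0.27). rpn-2, a scaffold of the regulatory particle, had 7376, 7991, 6314 and 6671 in the double strain and 9447, 10101, 10019 and 9259.5 in wildtype (log2 fold change -0.45 ± 0.08, adjusted p = 0.00077). CDC-48 is the unfoldase that pulls ubiquitinated proteins out of complexes and membranes together with UFD-1 and NPL-4. cdc-48.1 had 17463, 17100.1, 14259 and 13676 in the double strain and 19656, 22228, 20248 and 18341 in wildtype (log2 fold change -0.36 ± 0.10, adjusted p = 0.0070), ufd-1 gave -0.42 ± 0.08 and npl-4.2 -0.52 ± 0.10. npl-4.1 had 546, 471, 449 and 729 in the double strain and 941, 1274, 655 and 619 in wildtype, which overlapped (log2 fold change -0.67 ± 0.24, adjusted p = 0.028).

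Most genes tied to HSF-1 or UBQL-1 were lower by less than 2-fold. Of 6 genes for ubiquitin, its activating enzyme and shuttle receptors, the 1 called was ubql-1. All 6 had an adjusted p under 0.05 in the downward direction, against 33.3% of all genes (median -0.52). The polyubiquitin gene ubq-1 had 22739.9, 20641, 18797 and 19508 in the double strain and 29432, 32444, 29910.2 and 29659.7 in wildtype (log2 fold change -0.57 ± 0.08, adjusted p = 0.00018). hsb-1, which binds HSF-1 and holds it inactive, had 1138, 967, 897 and 870.0 in the double strain and 1429, 1366, 1352 and 1341 in wildtype (log2 fold change -0.50 ± 0.09, adjusted p = 0.00084). Of the 5 heat shock factors and binding partners none passed both thresholds by edgeR and 1 was lower by DESeq2, with 4 lower and 1 higher at an unadjusted p under 0.05, and a median of -0.50. The gene near the threshold was hsf-2, a second heat shock factor, named after its values were seen (log2 fold change -0.998, adjusted p = 0.045). It was called with DESeq2 (-1.10, adjusted p = 0.043), RLE scaling, all 16 libraries, the replicate block (-1.02, adjusted p = 0.017) and without double strain replicate 3 or wildtype replicate 2. The cytosolic HSP70 and HSP110 genes (6) likewise had none by edgeR and 1 lower by DESeq2, with 4 lower at an unadjusted p under 0.05, 2 lower without double strain replicate 4 or wildtype replicate 3 and 1 higher without wildtype replicate 1. hsp-110 had 10733, 14631, 10879.6 and 10873 in the double strain and 16246, 17583, 15643 and 14729.8 in wildtype, with double strain replicate 2 the highest of its group.

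Of 5 genes of the CDC-48 complex and 9 further cofactors none passed both thresholds by edgeR or DESeq2, with 5 and 8 lower at an unadjusted p under 0.05 and medians of -0.42 and -0.55. HSP90 with its partners (median -0.46, 10 of 12 lower at an unadjusted p under 0.05) and the CCT chaperonin (median -0.36, 8 of 8) likewise had none past both. hsp-90 had 49464, 73444, 48895 and 50234 in the double strain, against 82723, 88743, 85038 and 75477 in wildtype (log2 fold change -0.58 ± 0.13, adjusted p = 0.0029), with double strain replicate 2 well above the other 3. Under housekeeping gene scaling these medians were -0.08 for the proteasome, -0.03 for the CDC-48 complex, -0.17 for its cofactors, -0.08 for HSP90 with partners and 0.02 for CCT, all closer to 0 and positive for CCT.

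Of the small heat shock protein genes, hsp-17 rose. It had 1787, 1848, 1969.9 and 1849.8 in the double strain, against 312, 290.5, 388 and 584 in wildtype (log2 fold change 2.24 ± 0.19, adjusted p = 3.3e-05), without overlap, and averaged 1842 ± 167 in hsf-1 OE (SD). It was the only 1 of 10 small heat shock protein genes outside the hsp-16 family past both thresholds. F52E1.14 lies across hsp-17 on the other strand. hsp-43 gave 0.89 ± 0.10 (adjusted p = 0.00011), just inside the fold threshold. For hsp-16.2 the double strain had 334, 586, 387 and 362 and wildtype 393, 139, 15 and 76.3, and for hsp-16.41 the double strain had 291, 541, 317 and 362 and wildtype 366, 169, 10.9 and 73.5. Of the 6 hsp-16 genes, near-identical in pairs that can share reads, none passed by edgeR or DESeq2 and none had an unadjusted p under 0.05, while hsp-16.49 (log2 fold change -1.59 ± 0.78, adjusted p = 0.091) passed as lower without wildtype replicate 2 (-1.86, adjusted p = 0.046) or replicate 4 (-1.96, adjusted p = 0.031). For hsp-16.2 and hsp-16.41 wildtype replicate 1 was high and replicate 3 low, and neither gene passed (log2 fold change 1.42 ± 0.64, adjusted p = 0.070 for hsp-16.2 and log2 fold change 1.29 ± 0.66, adjusted p = 0.10 for hsp-16.41). With the replicate number as a block both passed (1.89, adjusted p = 0.016 for hsp-16.2 and 1.75, adjusted p = 0.024 for hsp-16.41). hsp-16.2 also passed with housekeeping gene scaling (1.79, adjusted p = 0.038), and both did without wildtype replicate 1 (2.42, adjusted p = 0.0036, and 2.14, adjusted p = 0.013). The heat-inducible hsp-70 had 424, 708, 588 and 767 in the double strain and 1089.9, 254, 107 and 193 in wildtype and overlapped, and it passed only without wildtype replicate 1 (1.73 on the log2 scale, adjusted p = 0.0013).

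Further stress pathways had no call. In the list for protein folding in the endoplasmic reticulum 7 genes were higher and 8 lower of 21 at an unadjusted p under 0.05, none past both thresholds by edgeR or DESeq2, and its chaperone hsp-3 had 27541, 29506, 26924 and 30101 in the double strain and 21307, 21556, 20308 and 22515 in wildtype (log2 fold change 0.41 ± 0.07, adjusted p = 0.00040). Of 12 genes of the mitochondrial stress response 10 were lower at an unadjusted p under 0.05 and none past both (median -0.37, 0.02 with housekeeping gene scaling), hsp-60 with -0.37 ± 0.06. Respiratory chain genes (median -0.10, 0.29 with housekeeping gene scaling) had none past both by either tool, with 3 higher and 8 lower of 29 at an unadjusted p under 0.05.

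Among metabolic genes single enzymes passed both thresholds. The elongases elo-4, elo-7 and elo-8, which lengthen fatty acids, were the 3 of 19 fatty acid genes that rose (15.8%, below the 20.6% of all genes), elo-8 with 342, 323, 427 and 445 in the double strain and 78.4, 45, 116 and 129 in wildtype (log2 fold change 2.05 ± 0.28, adjusted p = 0.00021). The lysosomal lipases lipl-1, lipl-3 and lipl-2 rose by 2.82, 2.001 and 1.57, lipl-1 with 113, 301, 129 and 101 in the double strain and 15.9, 31.6, 39.7 and 6.52 in wildtype. In their list, for lipid breakdown, 4 of 17 genes rose, or 23.5%, near the 20.6% of all genes. At an adjusted p under 0.05 this list had 7 higher and 5 lower (median 0.24). cbs-2, a cystathionine synthase, had 417, 471, 714 and 739 in the double strain and 99.2, 38.9, 127 and 158 in wildtype (log2 fold change 2.46 ± 0.36, adjusted p = 0.00027), and asns-1, asparagine synthetase, rose by 1.41. In lysosomes, cpr-1, a cathepsin B-like protease, had 8479, 5358, 8481 and 7678 in the double strain and 2083, 2289, 2580.0 and 1925 in wildtype (log2 fold change 1.76 ± 0.15, adjusted p = 3.2e-05), ppt-1, a palmitoyl thioesterase, rose by 1.95 and epg-5, which helps autophagosomes fuse with lysosomes, had 1426, 1327, 1041 and 1279 in the double strain and 404, 458, 364 and 425 in wildtype (log2 fold change 1.62 ± 0.12, adjusted p = 1.1e-05). These were 3 of 27 genes in that list (11.1%).

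The shares of detoxification genes called in either direction were 22.6% for cytochrome P450 genes, 20.0% for glutathione S-transferases and 13.6% for UDP-glucuronosyltransferases, beside 23.7% of all genes. Cytochrome P450 genes had 8 higher and 4 lower of 53, glutathione S-transferases 6 higher and 1 lower of 35, and UDP-glucuronosyltransferases 3 higher and 5 lower of 59. Without wildtype replicate 1 the glutathione S-transferases had 3 higher, and without wildtype replicate 2 the P450 genes had 1 lower and the UDP-glucuronosyltransferases 2 lower. The last family also had 6 higher without double strain replicate 2, 5 higher without wildtype replicate 3 and 3 lower without double strain replicate 4. gst-44 had 5.73, 11, 8.33 and 13.6 in the double strain and 46.5, 37.7, 38.3 and 29.8 in wildtype (log2 fold change -1.92 ± 0.30, adjusted p = 0.00034). ugt-9 fell by 1.71 on the log2 scale, with overlap, at 40.1, 87.3, 34.2 and 40.9 in the double strain and 214, 263, 107 and 81.9 in wildtype.

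Among signalling genes single members passed both thresholds. Of 12 insulin signalling genes 1 fell, or 8.33% beside 3.09% of all genes. That count was 0 without double strain replicate 3, double strain replicate 4 or wildtype replicate 2. At an adjusted p under 0.05, 9 were lower and 1 higher (median -0.50). In this list daf-16, the FOXO factor of insulin signalling, gave -0.20 ± 0.07, well inside a 2-fold change. mom-2, a Wnt ligand supplied by the mother, had 1774, 1975, 1047 and 1057 in the double strain and 3151, 5073, 3615 and 2976 in wildtype (log2 fold change -1.34 ± 0.24, adjusted p = 0.00073), and lin-44, a second Wnt ligand, rose by 1.22. They were the 1 lower and the 1 higher of 21 Wnt genes, 4.76% each, beside 3.09% and 20.6% of all genes. Neuropeptide genes had 9 higher and 1 lower of 113 tested, and 7.96% higher is below the 20.6% over all genes. The insulin-like ins-37 had 232, 219.6, 315 and 315 in the double strain and 50.2, 19.4, 56.1 and 73.5 in wildtype (log2 fold change 2.43 ± 0.32, adjusted p = 0.00018), ins-7 rose by 1.65 and ins-34 fell by 2.12. Nuclear hormone receptors had 11 higher and 4 lower of 180 tested, or 6.11% and 2.22% beside 20.6% and 3.09% of all genes, with nhr-266 at 2.18 and nhr-181 at -1.70. The lower count was 2 without double strain replicate 3, 1 without replicate 4 and 1 without wildtype replicate 2.

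Muscle, ribosomal and mitochondrial genome transcripts had 1 call in all. Of 19 muscle genes none passed both thresholds by edgeR or DESeq2, with 14 higher at an unadjusted p under 0.05 and a median of 0.26. Of 82 ribosomal protein genes rpl-42 rose, with 116, 109, 124 and 126 in the double strain and 22, 23.1, 57.4 and 63.3 in wildtype, and the median was -0.25 (0.14 with housekeeping gene scaling). The 13 tested genes of the mitochondrial genome had a median of 0.06 and none past both by either tool, with 1 lower at an unadjusted p under 0.05.

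Among genes with a mean of at least 20 normalized counts over the 8 libraries, 22 passed both thresholds above each of the other 3 genotypes and 1 below. Those named here are the 1 lower gene and 5 of the higher ones. The comparisons with the other genotypes share the double strain libraries. T01D3.6 (chromosome V, 13716849 to 13720402) had 190.3, 269, 314 and 259 in the double strain, 3829, 4129.8, 4758 and 4527 in hsf-1 OE, 2831, 2509, 2860.5 and 2854 in ubql-1(tm1574) and 1805, 2007, 2611 and 2854 in wildtype. Every double strain library was below all 12 others. The log2 fold change was -3.16 ± 0.19 against wildtype (adjusted p = 4.2e-06), -4.08 ± 0.17, adjusted p = 1.0e-05, against hsf-1 OE and -3.37 ± 0.13, adjusted p = 4.3e-08, against ubql-1(tm1574), and each passed with any library left out.

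On the higher side, C55C3.7 (chromosome IV, 5678847 to 5682020) had 173, 91.9, 99.996 and 137 in the double strain, 11.1, 2.79, 4.27 and 3.04 in hsf-1 OE, 3.43, 0, 0.866 and 6.85 in ubql-1(tm1574) and 4.90, 9.72, 9.57 and 0.931 in wildtype. It rose by 4.37 ± 0.45 on the log2 scale against wildtype and by 4.52 ± 0.40, adjusted p = 0.00075, against hsf-1 OE, and both calls held with any library left out. Y68A4A.13 averaged 117.2 ± 22.9 in the double strain, 26.3 ± 16.8 in hsf-1 OE, 21.8 ± 10.2 in ubql-1(tm1574) and 1.33 ± 1.94 in wildtype (SD), at least 33-fold above wildtype, and Y61B8A.6 lies across it on the other strand. T26H5.10 rose by 4.73 ± 0.50 against wildtype and stood above hsf-1 OE by 2.07 ± 0.31, adjusted p = 0.015. For C36C5.15 the values were 4.53 ± 0.40 against wildtype and 1.60 ± 0.27, adjusted p = 0.027, against hsf-1 OE, and for F19B10.4 4.27 ± 0.52 against wildtype and 2.52 ± 0.47, adjusted p = 0.043, against hsf-1 OE. Unlike C55C3.7, the last 4 genes lost the call against hsf-1 OE in 4 to 7 of the 8 fits with 1 library left out. Between the double strain and ubql-1(tm1574) 2223 genes passed both thresholds, 14.6% of 15197 tested.

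The share of genes called was uneven over the genome. On each autosome 18.8% to 23.6% of the genes tested were higher and 1.39% to 3.25% lower, whereas on the X chromosome 12.0% were higher and 5.44% lower. Pseudogenes were higher more often than protein-coding genes, at 36.2% of 307 against 20.2% of 14594, and 4.89% of them against 3.06% were lower. Pseudogenes can share reads with their parent genes. These shares are descriptions without a test.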

How the data were processed

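Raw counts per gene were deposited by the authors. They come from poly(A)-selected RNA sequenced in read pairs, aligned with HISAT2 2.0.5 to WBcel235 and counted with featureCounts 1.5.0-p3, and the strand setting is not given in the sources used here. Only genes with a count in a comparison are listed in its table, so the tables were joined by gene identifier over 23758 genes and an absent gene was set to 0. A further 48 per-library columns of normalized values, and the fold changes and p-values of the authors' own comparisons, were not used. Of the identifiers 23180 matched an annotated gene and 578 did not, and the intestine marker opt-2 was matched under its name pept-1.

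Counts were tested with the quasi-likelihood test of edgeR 4.0.16 (R 4.3.3), with TMM scaling, filterByExpr and Benjamini-Hochberg adjustment over all genes tested, and called at an adjusted p under 0.05 with a log2 fold change over 1 in size. The 4 libraries per genotype are called biological replicates in the study, but the sources do not say how cultures were separated, so p-values measure the spread between these libraries. On simulated data for the double strain against wildtype comparison, 200 of 15125 genes were changed by 2 on the log2 scale. The test recovered 196 of these with 7 false calls. Scaling with as many genes changed as the 3578 called here, 3111 of them higher, was not tested. Deviations of same-numbered libraries of the genotypes were correlated (0.25 to 0.54 over 11892 genes, against a mean of -0.14 for different numbers). Some pairs with different numbers lay in the same range. Double strain replicate 1 gave 0.39 with wildtype replicate 2 and 0.25 with wildtype replicate 1. Double strain replicates 3 and 4 gave 0.34 and 0.33 with wildtype replicates 4 and 3. These correlations therefore do not single out a pairing by number. A paired alternative added that number to the model as a block, resting on these correlations alone. Other alternatives were DESeq2 1.42.0, RLE scaling, scaling to 3 housekeeping genes, no filter, a mean of at least 100 normalized counts, all 16 libraries in 1 fit and leaving out each library.

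The genes and lists were chosen with earlier results of these data known. Named genes are the genotype genes and those measured in the study, the 10 largest rises and falls without overlap at a mean of 100 or more normalized counts, up to 4 called members per list with a mean of 20 or more (or the 3 most abundant where fewer than 2 were called), and up to 5 genes in each direction past both thresholds against all 3 other genotypes, also with a mean of 20 or more. Some genes that this rule names are not reported here. A bound on a fold uses 3 counts per library. No sequences were used.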

Additional observations from a re-analysis of the deposited data

Results flagged for a closer look

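Among 452 groups of 4 values, over the genes and lists named, 26 held a library whose gap to the nearest other library exceeded Dixon's critical value for 4 values as a share of the range. Chance flags about 1 in 20 groups. Double strain replicate 2 was that library in 11 of them and wildtype replicate 2 in 5.

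In double strain replicate 2 the highest values were 73444 for hsp-90, 14631 for hsp-110, 892 for W09B7.2, 328 for meg-4, 301 for lipl-1 and 87.3 for ugt-9, and the lowest was 55.1 for pals-26. The summed levels in that library were 117111 for HSP90 with its partners, against 85871 to 90312 in the other 3, 344744 for the respiratory chain, 12448 for cytochrome P450 genes and 2635910.3 for ribosomal proteins, each the highest of the 4.

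Double strain replicate 1 was the highest for ift-74 (258), nphp-4 (298), the genes of the cilium base in sum (2368, against 1563 to 1632) and cdc-42 (4347), the last being 1 of the 3 genes used for housekeeping scaling. Double strain replicate 3 had 0.833 for his-32 and the other 3 had 0.

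In wildtype, replicate 2 was the highest for ubq-1 (32444), his-24 (85.1), hil-4 (9262), cbd-1 (66327) and F56A4.3 (1.22, with 0 in the others). Replicate 1 was the highest for hsp-70 (1090, against 107 to 254) and the lowest for the summed moult markers (1946, against 2024 to 2039). Replicate 3 was the highest for hsp-16.49 (229.7, against 14.9 to 34.3) and F30H5.3 (5.47) and replicate 4 the lowest for lpr-3 (0.931).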

How the results depend on the processing

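Of 134 named genes that were called, 123 stayed called with each library left out and 116 under every alternative that tested them, and no called gene changed direction. Compared with 3578 genes, a mean of at least 100 normalized counts gave 1837 (1686 higher and 151 lower, with fewer genes tested) and no fold threshold 10648 (5615 higher and 5033 lower). Housekeeping gene scaling gave 4984, of which 4791 were higher and 193 lower, so the higher share was 96.1% in place of 86.9%, and 15 named genes lost their call, all of them lower ones of 1.34 or less in size. DESeq2 gave 3871, RLE scaling 3491, no filter 4292 and all 16 libraries 3800. Leaving out 1 library gave 3348 to 3983 for the comparison with wildtype, 48 to 109 for the difference from hsf-1 OE and 1881 to 2559 for the difference from ubql-1(tm1574). With DESeq2 185 genes differed from hsf-1 OE. The alternatives for these differences were chosen after seeing the data, and the cause was not tested.

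With the replicate block the counts were 3680 against wildtype, 179 against hsf-1 OE and 2265 against ubql-1(tm1574). The block changed the call of hsp-16.2, hsp-16.41 and hsf-2 and of no other named gene.

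Some list medians changed sign. With DESeq2 and RLE scaling they were -0.095 and -0.059 for the hsp-16 genes, -0.068 and -0.043 for endoplasmic reticulum folding, -0.026 and -0.0014 for amino acid metabolism and -0.035 and -0.010 for the mitochondrial genome. With housekeeping gene scaling they were 0.024 for CCT, 0.022 for the mitochondrial stress response, 0.29 for the respiratory chain, 0.18 for redox genes, 0.30 for autophagy and lysosome and 0.14 for ribosomal proteins. Counts of lower genes with DESeq2 were 11 for DNA replication and 7 for oocyte and eggshell, and 3 glutathione S-transferases were then higher. Low counts limit the folds of genes near 0 in 1 genotype, which are given as bounds.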

Other observations

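Some gene groups outside the comparisons above gave further values. Among genes of amino acid metabolism 6 rose and 2 fell of 18, against 20.6% and 3.09% of all genes, and the lower calls were 0 without double strain replicate 3, double strain replicate 4 or wildtype replicate 2. gln-2, a glutamine synthetase, had 1575, 1576, 1985 and 1878 normalized counts in the double strain and 687, 395, 1013 and 1096 in wildtype (log2 fold change 1.14 ± 0.26, adjusted p = 0.0030). sams-5, an S-adenosylmethionine synthetase, had 1049, 1366, 1671 and 1681 in the double strain and 651, 390.1, 737 and 865 in wildtype (log2 fold change 1.12 ± 0.23, adjusted p = 0.0015). In both the genotypes did not overlap, and wildtype replicate 2 was the lowest library. Without it neither passed the fold threshold (0.94 for gln-2 and 0.97 for sams-5).

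Few transcripts of the early embryo were present. Of 9 zygotic genes that were listed, 3 were tested, and end-3, a gut-specifying factor of the embryo, rose, with 32.1, 18.4, 24.2 and 24.4 in the double strain and 6.12, 1.22, 10.9 and 6.52 in wildtype (log2 fold change 1.99 ± 0.43, adjusted p = 0.0020). pes-1, an embryonic forkhead gene, fell by 1.06 on the log2 scale with overlap between the genotypes, a call lost without double strain replicate 2, 3 or 4 or wildtype replicate 3 or 4 (-1.03 to -0.84).

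Antioxidant genes, redox enzymes such as prdx-2 and sod-1, had none past both thresholds by edgeR or DESeq2, with 1 higher and 7 lower of 14 at an unadjusted p under 0.05 (median -0.21, 0.18 with housekeeping gene scaling). prdx-2, a peroxiredoxin, had 10375, 10330.1, 9475 and 9245 in the double strain and 13631, 14151, 13205 and 12438 in wildtype (log2 fold change -0.44 ± 0.07, adjusted p = 0.00038). Genes of mitochondrial fusion and fission had none past both by either tool, with 1 higher and 8 lower of 11 at an unadjusted p under 0.05, and drp-1, which splits mitochondria, gave -0.49 ± 0.09 (adjusted p = 0.00065). With double strain replicate 1, double strain replicate 2, wildtype replicate 3 or wildtype replicate 4 left out, or with the replicate block, 1 gene of this list was higher.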
